A study of Mus musculus with 24 samples.

Results

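The genes described here were the long noncoding RNAs Meg3, Rian, Mirg, Miat, Malat1, Neat1 and Cdr1os together with Xlr3b, picked by name from the Ensembl identifiers of the deposited count table. They made up 8 of 55414 gene identifiers, and all 8 were among the 19967 genes with enough counts to be tested. The GENCODE M21 annotation lists 7 of them as noncoding transcripts and Xlr3b as protein coding. The name "abundant noncoding RNA" therefore did not hold for Xlr3b, which had no count in 13 of 24 libraries. Meg3 (ENSMUSG00000021268), Rian (ENSMUSG00000097451) and Mirg (ENSMUSG00000097391) lie on chromosome 12, Miat (ENSMUSG00000097767) on chromosome 5, Malat1 (ENSMUSG00000092341) and Neat1 (ENSMUSG00000092274) on chromosome 19, and Cdr1os (ENSMUSG00000071753) and Xlr3b (ENSMUSG00000073125) on the X chromosome. None lies on chromosome 16 or 17, the sources of the segments that Ts65Dn mice carry in an extra copy.

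The libraries were made from basal forebrain neurons of the medial septum and the vertical limb of the diagonal band, caught by laser under the microscope after antibody staining for choline acetyltransferase (ChAT), about 500 neurons for each animal. All animals were offspring of Ts65Dn dams, a trisomic model of Down syndrome, and of F1 males (C57Bl/6J Eicher × C3H/HeSnJ), and were males of about 6 months. Control-diet 2N (6 libraries) were disomic and control-diet Ts65Dn (6 libraries) trisomic offspring of dams on 1.1 g/kg choline chloride, while supplemented 2N (4 libraries) and supplemented Ts65Dn (8 libraries) were their counterparts from dams on 5.0 g/kg. The dam's diet ran from embryonic day 0 to postnatal day 21, and every animal ate the control diet afterwards. The disomic controls thus also grew in trisomic dams, and the litter of each animal is not given. The p-values count each animal as 1 unit even though dams, not pups, were assigned to a diet.

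Each library held between 4688277 and 13443457 counts, and 13102 to 22593 genes were detected. Control-diet Ts65Dn library 3 and supplemented Ts65Dn library 7 stood apart with the fewest detected genes, 13102 and 13141. Chat itself was below 1 CPM (a count scaled to a fixed library size) in 6 libraries, namely control-diet 2N 5, control-diet Ts65Dn 3, 5 and 6, supplemented 2N 3 and supplemented Ts65Dn 7. Of 11 cholinergic markers, between 4 and 11 were detected in a library, and those at 0 in at least 1 library included Chat, Slc18a3, Slc5a7, Lhx8, Isl1 and Gbx1. All 13 general neuronal markers and all 15 astrocyte markers were detected in every library. At least 80 counts of Xist, the RNA of the inactive female X chromosome, were present in 4 libraries of animals labelled male (control-diet Ts65Dn 1, 2 and 6, supplemented 2N 2). The deposited table placed supplemented Ts65Dn libraries 2 and 5 among the columns of supplemented 2N animals, and the results that rest on them are given with and without them.

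Long noncoding RNAs are transcribed and often spliced like messenger RNAs but are not translated into long proteins. Meg3, Rian and Mirg are expressed from the maternal chromosome of the imprinted Dlk1-Dio3 domain, where Rian hosts small nucleolar RNAs and Mirg hosts microRNAs. The domain is strongly expressed in the brain. Malat1 collects in nuclear speckles, stores of splicing factors, Neat1 is the scaffold of paraspeckles, and Miat forms separate nuclear domains in neurons and binds splicing factors through short repeats. Cdr1os is the host transcript of the circular RNA Cdr1as, which is rich in sites for the microRNA miR-7 and is abundant in neurons. Xlr3b belongs to an X-linked family of near-identical copies and is imprinted in the mouse brain.

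The sequences of the imprinted trio are shown first because their RNAs come from 1 domain but differ at their starts. The windows span 250 bases before to 50 bases after a RefSeq start (GRCm38.p6, plus strand), at chr12:109540746-109541045 for Meg3, chr12:109603695-109603994 for Rian and chr12:109734731-109735030 for Mirg. Capitals mark TGACGTCA (a cyclic AMP response element), TATAAA and CCAAT on either strand.
Meg3: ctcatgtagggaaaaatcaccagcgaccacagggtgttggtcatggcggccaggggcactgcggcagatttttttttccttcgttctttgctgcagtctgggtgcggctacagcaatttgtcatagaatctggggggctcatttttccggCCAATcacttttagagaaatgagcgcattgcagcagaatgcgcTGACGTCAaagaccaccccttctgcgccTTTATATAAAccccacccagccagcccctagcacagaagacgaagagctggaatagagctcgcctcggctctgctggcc
Rian: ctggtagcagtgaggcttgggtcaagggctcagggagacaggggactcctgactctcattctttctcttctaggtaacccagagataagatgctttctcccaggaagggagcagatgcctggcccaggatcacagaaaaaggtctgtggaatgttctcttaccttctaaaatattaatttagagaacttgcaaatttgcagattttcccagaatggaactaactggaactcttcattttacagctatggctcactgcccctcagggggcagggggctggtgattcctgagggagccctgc
Mirg: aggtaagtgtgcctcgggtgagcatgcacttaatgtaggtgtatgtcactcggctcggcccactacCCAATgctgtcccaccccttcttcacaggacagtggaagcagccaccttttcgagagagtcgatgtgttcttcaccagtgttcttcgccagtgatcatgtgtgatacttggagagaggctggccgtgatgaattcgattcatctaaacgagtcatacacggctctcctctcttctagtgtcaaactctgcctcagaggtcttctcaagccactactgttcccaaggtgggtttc
The Meg3 window held 1 TGACGTCA, 2 overlapping TATAAA (1 on each strand), 1 CCAAT and 13 CG dinucleotides. The Mirg window held 1 CCAAT and 10 CG dinucleotides, and the Rian window held none of the searched words and 0 CG. Meg3 has another RefSeq start, not printed, whose window (chr12:109545148-109545447) held none of the words and 1 CG. Over the 32851 RefSeq windows of this length, 1.79% held TGACGTCA, 13.616% TATAAA and 37.408% CCAAT, the median number of CG was 7 and 5.43% had no CG.

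For Cdr1os, the seed of miR-7 and its sites carry the interest. The mature sequences below are from RefSeq (GRCm38.p6, chr7:78888295-78888317 for miR-7a-5p and chr17:56243017-56243040 for miR-7b-5p, both plus strand), with the shared seed, bases 2 to 8, in capitals. The third line is a stretch of 150 bases of the Cdr1os transcript ENSMUST00000231449 (GRCm38, chrX:61183652-61183801, plus strand, exonic), with the seed match GTCTTCC in capitals.
miR-7a-5p: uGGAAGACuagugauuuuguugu
miR-7b-5p: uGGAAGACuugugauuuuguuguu
Cdr1os: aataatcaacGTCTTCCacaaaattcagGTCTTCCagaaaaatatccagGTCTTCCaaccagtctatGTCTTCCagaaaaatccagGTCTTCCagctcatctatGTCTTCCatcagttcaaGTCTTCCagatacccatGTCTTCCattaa
The stretch held 8 seed matches, and the whole transcript of 3354 bases held 123, or 36.67 per kilobase. Of 68537 annotated transcripts of 1000 bases or more, 22.74% held at least 1 GTCTTCC and none of another gene held more copies. A total of 79 copies lay opposite Cdr1, a gene of 1554 bases on the other strand (chrX:61184005-61185558) that lies whole within the Cdr1os exon chrX:61183248-61186174.

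Miat carries the repeat ACTAAC, the core of the branch point sequence read by the splicing factor Sf1, shown in capitals in 150 bases of its transcript ENSMUST00000182953 (GRCm38, chr5:112217314-112217463, minus strand, exonic).
Miat: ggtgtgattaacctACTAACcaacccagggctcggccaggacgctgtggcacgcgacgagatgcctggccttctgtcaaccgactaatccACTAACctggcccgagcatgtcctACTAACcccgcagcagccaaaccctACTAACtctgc
The stretch held 4 copies and the transcript of 9163 bases held 11. The word was present in 24.998% of the 68537 transcripts, and 10 transcripts of other genes held more copies.

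Compared per length, as TPM (a gene's share of all transcripts on a fixed scale, mean over 24 libraries), Malat1 (2095, SD 866) and Meg3 (1937, SD 738) were the highest members and ranked 33 and 38 among all 55414 genes. Malat1 was above Meg3 in 15 of 24 libraries, so their order was not stable within the spread. Rian followed at 425 TPM (SD 137, rank 116) and was below Meg3 in 24 of 24 libraries. Cdr1os had a mean of 207 TPM (SD 129, rank 267) and was below Rian in 22 of 24. Mirg (75.3 TPM, SD 38.7, rank 1080) was below Cdr1os in all 24, whereas Mirg and Miat (61.6 TPM, SD 33.2, rank 1384) changed places between libraries, with Mirg the higher in 13 of 24. Neat1 (18.1 TPM, SD 8.52, rank 5143) was below Miat in 23 libraries, and Xlr3b (1.19 TPM, SD 2.63, rank 17715) was last. Malat1 took 1.28% and Meg3 0.976% of all counts.

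Levels of 1 gene across groups are given below as CPM, scaled with TMM factors, which correct for differences in library composition. Differences are log2 fold changes with their standard error (SE) from edgeR's quasi-likelihood test over all 19967 genes, and a gene was called at a Benjamini-Hochberg adjusted p under 0.05. In captured tissue pooled from many cells, fewer cells of a type and less RNA per cell cannot be told apart. No member was called by edgeR in any of 6 comparisons. The share of all tested genes called was 0.336% for trisomy on the control diet, 0.13% for supplementation in Ts65Dn, 0.00501% for supplementation in 2N, 0.18% for trisomy on the supplemented diet, 0.546% for supplemented Ts65Dn against control-diet 2N and 0.00501% for the genotype by diet interaction. At an unadjusted p under 0.05, the members were Mirg, Miat and Cdr1os for trisomy on the control diet, where 10.9% of all genes were under it. They were Malat1 and Cdr1os for supplementation in 2N (6.92% of all genes), Malat1 for trisomy on the supplemented diet (9.49%), Mirg and Cdr1os for supplemented Ts65Dn against control-diet 2N (9.17%), Malat1 and Cdr1os for the interaction (8.43%), and none for supplementation in Ts65Dn (9.61%). DESeq2's Wald test called none of the 8, and limma-voom called 1 in each of 2 comparisons, Malat1 for trisomy on the supplemented diet and Meg3 for supplemented Ts65Dn against control-diet 2N. That Meg3 value was -0.18 with limma-voom and 0.06 with edgeR, so the signs were opposite.

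**Figure D1:**
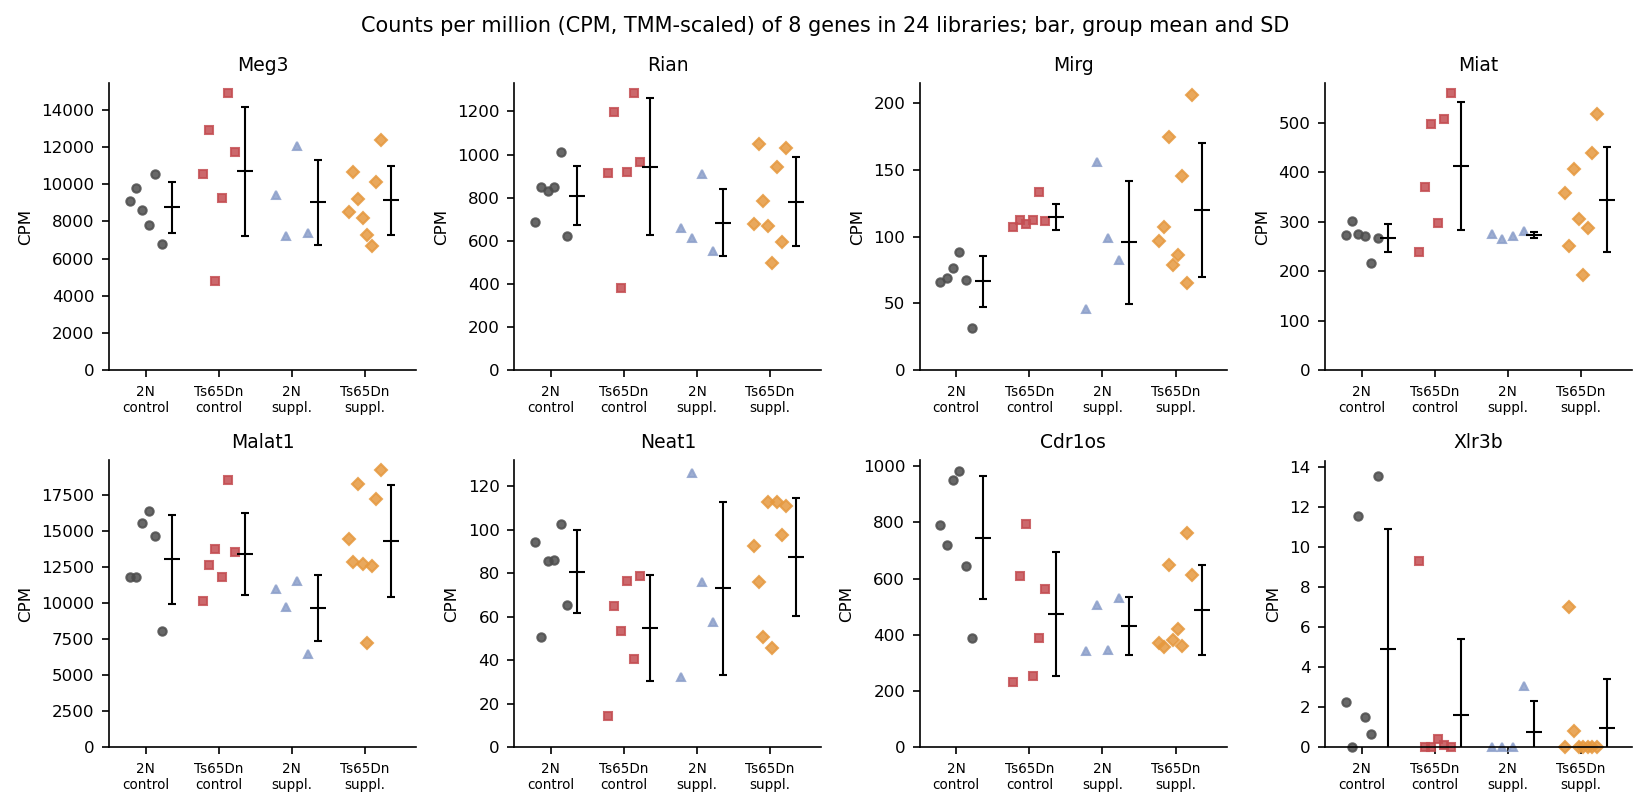
Each panel plots 1 gene's CPM in every library (points) by group, with the group mean and SD. The 6 control-diet Ts65Dn libraries lay above all 6 control-diet 2N libraries for Mirg, as for 0.265% of all tested genes, and the groups overlapped for the other members.

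Meg3, the most abundant RNA of the imprinted domain, had 6761 (lowest), 8846 (median) and 10550 CPM (highest) in control-diet 2N and 4768, 11127 and 14895 CPM in control-diet Ts65Dn. The 4 supplemented 2N libraries held 9410, 7205, 12064 and 7373 CPM, and supplemented Ts65Dn 6674, 8851.5 and 12381 CPM. All 4 groups overlapped, and control-diet Ts65Dn held both the lowest and the highest library. Group means were 8762 (SD 1364, n = 6), 10680 (SD 3488, n = 6), 9013 (SD 2267, n = 4) and 9117 CPM (SD 1878, n = 8) in the same order. Meg3 was 0.29 (SE 0.17, edgeR adjusted p = 0.605) higher on the log2 scale in control-diet Ts65Dn than in control-diet 2N, which missed the threshold, and limma-voom gave -0.02. The low value in control-diet Ts65Dn came from library 3, one of the pair with few detected genes, and without that pair the difference was 0.43 and still not called.

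Rian, the host of a large cluster of small nucleolar RNAs, had 623 (lowest), 841 (median) and 1011 CPM (highest) in control-diet 2N and 379, 941 and 1284 CPM in control-diet Ts65Dn. It had 662, 615, 909 and 552 CPM in supplemented 2N and 498, 732 and 1047 CPM (lowest, median, highest) in supplemented Ts65Dn. As for Meg3, library 3 of control-diet Ts65Dn was the lowest of all and every pair of groups overlapped. The difference for trisomy on the control diet was 0.22 (SE 0.22, edgeR adjusted p = 0.86) and that for supplementation in Ts65Dn was -0.27 (SE 0.20, edgeR adjusted p = 0.78), both within the spread between animals.

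Mirg, the host of a distal microRNA cluster of the domain, was the member whose 2 control-diet groups did not overlap. It had 31.8 (lowest), 68.2 (median) and 88.5 CPM (highest) in control-diet 2N against 107, 112 and 134 CPM in control-diet Ts65Dn. The highest disomic library lay below the lowest trisomic one, and the trisomic libraries were the tightest group for this gene (mean 114, SD 9.73, n = 6, against 66.5, SD 18.9, n = 6). The difference was 0.78 (SE 0.31), about 1.72-fold, with an edgeR adjusted p of 0.278, so it was not called. An exact two-sided permutation test of the 6 against 6 libraries gave p = 0.00216, the smallest that this design allows. The exact permutation p-values given for the members are not adjusted for the number of genes and comparisons. Of all tested genes, 0.265% had every control-diet Ts65Dn library above every control-diet 2N library on the same scale, and 0.631% did not overlap in either direction.

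The supplemented groups were wider for Mirg. Supplemented 2N libraries held 45.5, 156, 98.6 and 82.5 CPM, and supplemented Ts65Dn held 65.3 (lowest), 102 (median) and 206 CPM (highest). Both overlapped each other and both control-diet groups. Against control-diet 2N, Mirg was 0.85 (SE 0.30, edgeR adjusted p = 0.226) higher in supplemented Ts65Dn, where 8 of 8 libraries were above the disomic mean and 5 above its maximum (exact permutation p = 0.0163). With CPM scaled by library total alone, the difference of mean log2 CPM was 0.61 against 0.81 with TMM. On that scale 7 of 8 libraries were above the disomic mean and 4 above its maximum (exact permutation p = 0.0696). Over the alternative runs the difference ran from 0.12 to 1.07. The difference for supplementation in Ts65Dn was 0.07 (SE 0.29, edgeR adjusted p = 0.982). Supplementation in 2N gave 0.52 (SE 0.34) and was not called. Trisomy on the supplemented diet gave 0.33 (SE 0.33, edgeR adjusted p = 0.951). The direction for trisomy on the control diet was the same in every alternative run, from 0.52 to 1.21. Within the 4 against 4 libraries whose animal identifier begins with 17 the permutation difference was 0.91 (exact p = 0.0286, the smallest allowed). The share of all tested genes that reach this p in these libraries was not computed.

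The ratio of Mirg to Rian removes the library size. It was 8.18 Mirg per 100 Rian CPM in control-diet 2N (SD 1.99, n = 6), 14.0 in control-diet Ts65Dn (SD 7.30, n = 6), 14.5 in supplemented 2N (SD 7.93, n = 4) and 15.3 in supplemented Ts65Dn (SD 4.36, n = 8). The disomic control group was lowest, and the means of the other groups differed by less than their SD. In control-diet Ts65Dn, library 3, where Rian was low, stood at 28.8, and without it the mean was 11.1 (SD 1.14, n = 5), with a range of 9.40 to 12.2 that overlapped that of control-diet 2N (5.10 to 10.4). Rian per 100 Meg3 CPM lay between 7.65 (SD 0.64, n = 4, supplemented 2N) and 9.27 (SD 1.13, n = 6, control-diet 2N). Of 10 listed genes of the Dlk1-Dio3 domain and its neighbours beside the 3 members, 9 were tested and none was called. For trisomy on the control diet 7 had positive and 2 negative differences, with a median of 0.54, against a median of -0.02 and 49% positive over all genes. Begain, the one with the smallest p, lies beside the domain and differed by 0.72 (SE 0.32, edgeR adjusted p = 0.351). For supplementation in Ts65Dn, 4 were positive and 5 negative (median -0.18 against 0.04, with 51.9% positive over all genes). Supplementation in 2N also gave 7 positive and 2 negative (median 0.46 against -0.06 over all genes). So did supplemented Ts65Dn against control-diet 2N (median 0.42 against 0.00). Trisomy on the supplemented diet gave 4 positive and 5 negative (median -0.13 against 0.09). The comparisons with 7 positive genes share the control-diet 2N libraries. Rtl1, the retrotransposon-derived gene that is read from the paternal chromosome opposite to a maternal antisense RNA, differed by 0.82 (SE 0.33, edgeR adjusted p = 0.425) for trisomy on the supplemented diet. Of 57 matched microRNA genes of the domain only 3 had enough counts to be tested and none was called. Among 36 tested imprinted genes from elsewhere and here, none was called and the trisomy median on the control diet was -0.19.

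**Figure D2:**
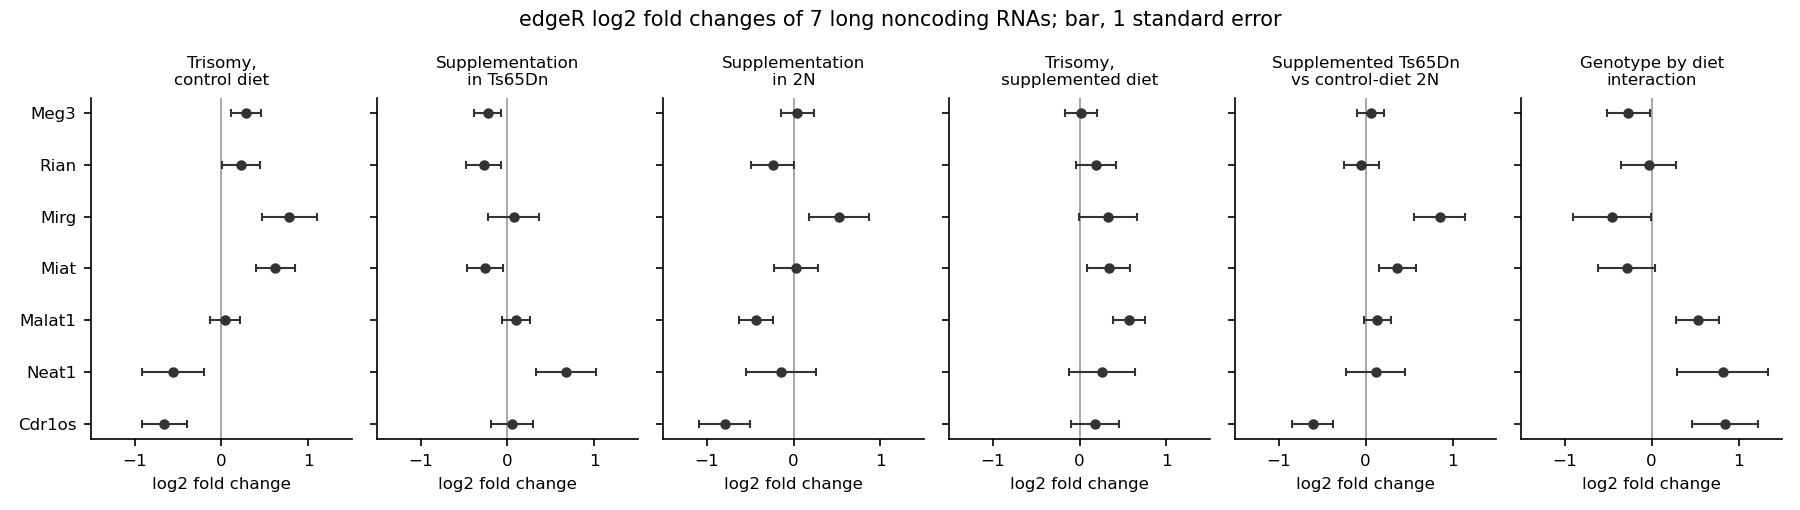
Log2 fold changes from edgeR (points) with their SE (bars) for 7 members in each comparison; Xlr3b is left out because most of its libraries were at 0. Mirg (0.78) and Miat (0.62) lay above 0 and Cdr1os (-0.66) below 0 for trisomy on the control diet, and none of these differences was called.

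Miat, a nuclear RNA of neurons that was also named for its association with heart infarction, had 216 (lowest), 273 (median) and 302 CPM (highest) in control-diet 2N and 239, 433 and 561 CPM in control-diet Ts65Dn. It had 275, 266, 270 and 282 CPM in supplemented 2N and 192, 332 and 517 CPM (lowest, median, highest) in supplemented Ts65Dn. Both disomic groups were narrow, and both trisomic groups were wide, with their lowest libraries near the disomic ones (SD 129, n = 6, and 107, n = 8). Miat was 0.62 (SE 0.23) higher for trisomy on the control diet, about 1.54-fold, with an edgeR adjusted p of 0.227. Of the 6 control-diet Ts65Dn libraries, 5 were above the disomic mean and 4 above its maximum (exact permutation p = 0.0368).

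In control-diet Ts65Dn, Miat was highest in the libraries with little Chat, which was not so in the 2N groups. Control-diet Ts65Dn libraries 3, 5 and 6 held 497, 508 and 561 CPM of Miat, the highest of that group, and each had Chat under 1 CPM. Of the 2N libraries of that kind, control-diet 2N 5 held 216 CPM, the lowest of its group, and supplemented 2N 3 held 270 CPM. Supplemented Ts65Dn 7, also of that kind, held 438 CPM. Only library 8 of its group was higher, at 517 CPM with Chat at 1.45 CPM. Across animals, after subtracting group means, Miat and the cholinergic marker score gave r = -0.43 (rho -0.34, permutation adjusted p = 0.325 for r), which missed the threshold. Without the 6 libraries of that kind the difference was 0.09 (SE 0.27), a setting that leaves 3 control-diet Ts65Dn libraries. Within the identifier prefix 17, the permutation difference was 0.82 (exact p = 0.0286, the smallest allowed by 4 against 4, with the share of all genes at that p not computed). Summed CPM of the 11 cholinergic markers ran from 267 to 360 in control-diet 2N and from 56.9 to 300 in control-diet Ts65Dn, from 330 to 598 in supplemented 2N and from 331 to 503 in supplemented Ts65Dn. The same 3 control-diet Ts65Dn libraries had the highest summed CPM of the 7 glutamatergic neuron markers, at 3533, 1448 and 1519, against 299 to 510 in the other 3, 159 to 842 in control-diet 2N, 99.1 to 291 in supplemented 2N and 95.4 to 614 in supplemented Ts65Dn. For trisomy on the control diet 4 of these markers were positive and 3 negative (median 1.85), and Camk2a, a kinase of excitatory synapses, rose by 1.85 (SE 0.45, edgeR adjusted p = 0.0472). Of 13 general neuronal markers 11 were negative (median -0.53), and Nefm, a neurofilament protein, fell by 1.29 (SE 0.30, edgeR adjusted p = 0.0411). The part of these neuronal markers in the Miat difference was not tested beyond these values.

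Among 4 splicing regulators reported to bind Miat (Qk, Celf3, Sf1 and Srsf1), 1 was called. Qk, an RNA-binding protein that controls splicing and is abundant in glia, had 254 (lowest), 324 (median) and 517 CPM (highest) in control-diet 2N against 111, 161 and 175 CPM in control-diet Ts65Dn, where the groups did not overlap. It fell by 1.14 on the log2 scale (SE 0.23, edgeR adjusted p = 0.0111) in the trisomic animals. Without control-diet Ts65Dn library 3, one of the pair with few genes, it was -1.08 (edgeR adjusted p = 0.077) and no longer called, and it was called in 8 of 16 other settings, with negative values in all 16. On the supplemented diet Qk differed by -0.07 (SE 0.24, edgeR adjusted p = 0.996). Oligodendrocyte markers differed in the same direction: all 15 had negative differences for trisomy on the control diet (median -0.47), none of them called, and their summed CPM ran from 3321 to 4300 in control-diet 2N, from 850 to 4319 in control-diet Ts65Dn, from 2767 to 3694 in supplemented 2N and from 3034 to 4278 in supplemented Ts65Dn. With the glial marker score in the model, Qk differed by -0.74 (SE 0.34, edgeR adjusted p = 0.80) and was not called. That setting called 0 of all tested genes for this comparison, so the lost call is not particular to Qk. The part of glial RNA in the Qk difference was not tested.

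Malat1, an RNA of nuclear speckles and the member with the most counts, had 8039 (lowest), 13226 (median) and 16346 CPM (highest) in control-diet 2N and 10158, 13061 and 18519 CPM in control-diet Ts65Dn. It had 10933, 9676, 11503 and 6456 CPM in supplemented 2N and 7227, 13619 and 19217 CPM (lowest, median, highest) in supplemented Ts65Dn. The control-diet groups overlapped almost wholly, whereas all 4 supplemented 2N libraries were below the control-diet 2N mean. Trisomy on the control diet gave 0.04 (SE 0.17, edgeR adjusted p = 0.983).

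On the supplemented diet Malat1 was 0.57 (SE 0.18) higher in Ts65Dn than in 2N, about 1.48-fold, with an edgeR adjusted p of 0.29. Of 8 supplemented Ts65Dn libraries, 7 were above every supplemented 2N library (exact permutation p = 0.0647), and the other was library 5. Without supplemented Ts65Dn libraries 2 and 5, which the deposited table places among the 2N columns, the difference was 0.71 (SE 0.17) and was called. That setting was chosen after the data were seen. The number of all genes called for this comparison ran from 0 to 409 over the alternative settings, around 36 in the main fit. Supplementation in 2N gave -0.43 (SE 0.19, edgeR adjusted p = 0.601), and the interaction was 0.53 (SE 0.25, edgeR adjusted p = 0.564). The share of mitochondrial ribosomal RNA also differed, from 17.8% to 43.3% in supplemented Ts65Dn and from 18.1% to 22.6% in supplemented 2N. With that RNA left out of the totals the Malat1 difference was 0.59, and with CPM scaled by library total alone it was 0.26 against 0.55 with TMM on the same log2 CPM means, with 4 of 8 libraries above every supplemented 2N library (exact permutation p = 0.218).

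The deposited files also give an isoform-weighted transcript length for each gene, the mean length of its annotated transcripts weighted by their estimated abundance. Malat1 has 1 unspliced annotated transcript of 6983 bases and 3 short spliced ones of 556, 485 and 656 bases. Their junctions are shown because they are what distinguishes the short forms, with 20 bases before the junction in lower case and 20 bases after it in capitals (GRCm38, minus strand, between chr19:5797004 and chr19:5795785, chr19:5802238 and chr19:5801966, and chr19:5796389 and chr19:5795785).
ENSMUST00000173314: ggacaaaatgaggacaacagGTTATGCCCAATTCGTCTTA
ENSMUST00000173499: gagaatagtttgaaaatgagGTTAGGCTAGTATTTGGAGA
ENSMUST00000174808: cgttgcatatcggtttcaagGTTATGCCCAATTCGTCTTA
The length was at least 6980 in 14 of 14 Ts65Dn libraries, with 6980.8 in control-diet Ts65Dn library 1 and 6983, the unspliced transcript alone, in the others. The bound of 6980 was chosen after the values were seen. Among 2N libraries it was at least 6980 in 2 of 10. It was 6717, 6870, 4779, 4586, 6983 and 6554 bases in control-diet 2N and 6983, 5483, 4921 and 5115 bases in supplemented 2N. The trisomic libraries were all at the top of the range and the disomic ones were spread below it.

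Tested with limma on log2 length over 5214 genes, a measure taken up after the data had been seen, Malat1 was 0.27 (SE 0.075) longer in Ts65Dn over both diets, with an adjusted p of 0.227. It ranked 33 by p, and 9.47% of the genes had an unadjusted p under 0.05 and 0.0384% were called, so Malat1 was not called. The value was also 0.27 without the pair of libraries with few genes and without supplemented Ts65Dn 2 and 5. The single reads of 50 cycles rarely cross a junction, and RSEM divides reads between transcripts by a model, so the length is an estimate. TPM divides by the length and is also scaled within a library. On log2(TPM + 1), Malat1's trisomy differences were -0.53 under the control and -0.47 under the supplemented diet, opposite in sign to those of the counts, where its length differences were 0.22 and 0.33 and the medians of all genes on that TPM scale were -0.28 and -0.40. Control-diet 2N averaged 2889 TPM (SD 1227, n = 6), control-diet Ts65Dn 1908 TPM (SD 507, n = 6), supplemented 2N 2167 TPM (SD 471, n = 4) and supplemented Ts65Dn 1604 TPM (SD 514, n = 8). For the 6 other members with enough counts for the length fit (all but Xlr3b), no length difference was called in any comparison, where at most 0.134% of genes were called. Cdr1os had the smallest p of them, at 0.49 (SE 0.19, adjusted p = 0.433, limma) for supplementation in Ts65Dn.

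**Figure D3:**
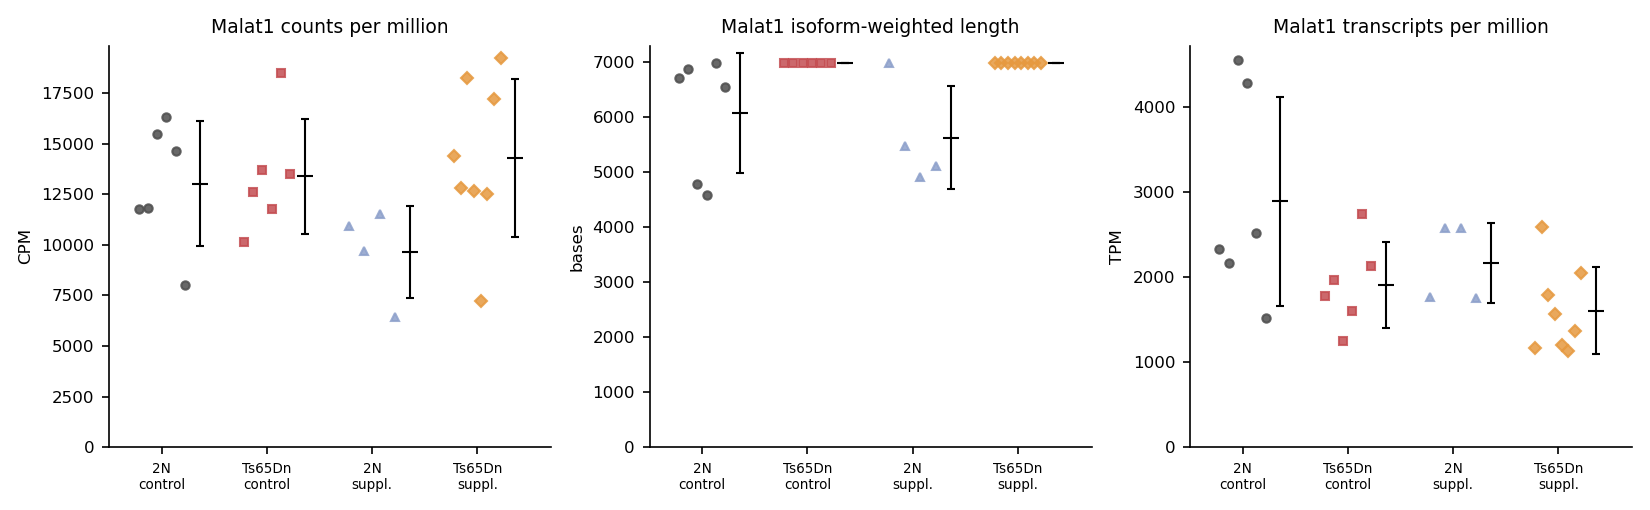
Malat1 in every library (points) by group, as CPM, as isoform-weighted length in bases and as TPM, with means and SD. All 14 Ts65Dn libraries sit at 6980 bases or more, 8 of 10 2N libraries sit below, and the order of the groups differs between CPM and TPM.

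Of 34 tested nuclear speckle proteins none was called. For trisomy on the control diet 25 were positive and 9 negative (median 0.20 against -0.02 over all genes). The smallest p belonged to Son, a core speckle protein, at 0.72 (SE 0.18, edgeR adjusted p = 0.0584), with a mean of 538 CPM (SD 73.4, n = 6) for control-diet 2N and of 886 CPM (SD 142, n = 6) for the trisomic animals of that diet. Dyrk1a, a kinase of splicing factors, was next at 0.79 (SE 0.29, edgeR adjusted p = 0.224). For supplementation in Ts65Dn 10 were positive and 24 negative (median -0.17). Son and Dyrk1a are both among the genes that Ts65Dn mice carry in an extra copy. Among 30 tested genes of nuclear RNA retention, decay and the processing of Malat1 and Neat1 ends, 16 were positive, 14 negative and none was called for trisomy on the control diet.

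Neat1, which scaffolds paraspeckles, had 50.7 (lowest), 85.7 (median) and 102 CPM (highest) in control-diet 2N and 14.5, 59.3 and 78.7 CPM in control-diet Ts65Dn. It had 32.3, 126, 76.2 and 57.4 CPM in supplemented 2N and 45.8, 95.1 and 113 CPM (lowest, median, highest) in supplemented Ts65Dn. Control-diet Ts65Dn was the lowest group and its library 1 the lowest library, yet all groups overlapped. Trisomy on the control diet gave -0.56 (SE 0.36, edgeR adjusted p = 0.655, exact permutation p = 0.0714), with 1 of 6 libraries above the disomic mean, and -0.36 without library 1 of control-diet Ts65Dn. Supplementation in Ts65Dn gave 0.67 (SE 0.34, edgeR adjusted p = 0.534), with 7 of 8 libraries above the control-diet Ts65Dn mean (exact permutation p = 0.0486). With a glial marker score in the model these became 0.02 (SE 0.53) and 0.29 (SE 0.43), with larger SE than without it. The score differed between the control-diet groups. Mean astrocyte scores were 0.29 in control-diet 2N and -0.26 in control-diet Ts65Dn, and mean oligodendrocyte scores 0.40 and -0.63. For trisomy on the control diet this setting called 0 of all tested genes. The part of glial RNA in the Neat1 differences was not tested. Of 34 tested paraspeckle proteins none was called in any comparison. Their median was -0.14 for trisomy on the control diet (15 positive, 19 negative) and 0.17 for supplementation in Ts65Dn (19 positive, 15 negative). Sfpq, an essential paraspeckle protein, differed by -0.49 (SE 0.20, edgeR adjusted p = 0.337) for supplementation in Ts65Dn.

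Cdr1os, the host of the circular RNA, was highest in control-diet 2N, with 388 (lowest), 756 (median) and 983 CPM (highest). It had 233, 475 and 793 CPM in control-diet Ts65Dn, 355, 402 and 762 CPM in supplemented Ts65Dn (lowest, median, highest), and 342, 507, 344 and 533 CPM in supplemented 2N. The other groups lay mostly below the disomic control group, whose library 6 was its lowest, and each overlapped it. Trisomy on the control diet gave -0.66 (SE 0.26, edgeR adjusted p = 0.27, exact permutation p = 0.0649). Supplementation in 2N gave -0.79 (SE 0.30, edgeR adjusted p = 0.566), with 0 of 4 libraries above the control-diet mean (exact permutation p = 0.0333). Supplemented Ts65Dn against control-diet 2N gave -0.61 (SE 0.24, edgeR adjusted p = 0.318), with 1 of 8 above that mean (exact permutation p = 0.0313). These comparisons share the 6 control-diet 2N libraries and are not separate evidence. Within Ts65Dn, the difference of Cdr1os for supplementation was 0.05 (SE 0.24, edgeR adjusted p = 0.988), and the interaction was 0.84 (SE 0.38, edgeR adjusted p = 0.535).

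Astrocyte markers had differences of the same sign on the control diet. Of 15, 14 were negative and 1 positive for trisomy (median -0.39), none called, and their summed CPM ran from 3447 to 4546 in control-diet 2N, from 3093 to 3986 in control-diet Ts65Dn, from 3139 to 3189 in supplemented 2N and from 3063 to 4364 in supplemented Ts65Dn. With the glial score in the model, Cdr1os differed by -0.92 (SE 0.43) for trisomy on the control diet. For supplementation in 2N it differed by -0.90 (SE 0.32), and both values were as large as without the score. That score averages the astrocyte and oligodendrocyte scores. After subtracting group means, Cdr1os had r = 0.68 with the astrocyte and r = -0.38 with the oligodendrocyte score. The average therefore cannot adjust for astrocyte RNA alone, whose part was not tested.

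Cdr1 has a single annotated exon, opposite miR-7 seed matches of Cdr1os that lie outside the stretch printed above. Its mean was 1248 CPM in control-diet 2N (SD 320, n = 6) and 958 CPM in control-diet Ts65Dn (SD 288, n = 6). The mean of Cdr1 was 665 CPM in supplemented 2N (SD 216, n = 4) and 826 CPM in supplemented Ts65Dn (SD 258, n = 8). For both genes control-diet 2N had the highest and supplemented 2N the lowest mean. Supplementation in 2N gave -0.91 (SE 0.27, edgeR adjusted p = 0.566). No source used here states the strand setting of the counting, so reads of Cdr1 and of the RNA opposite to it cannot be told apart, and the circular RNA was not quantified. Of 14 matched genes of the circuit of Cdr1as, miR-7, Cyrano (Oip5os1) and the Argonaute proteins, 10 were tested and none was called. Oip5os1, a long noncoding RNA that directs the destruction of miR-7, differed by -1.03 (SE 0.30, edgeR adjusted p = 0.142) for trisomy on the control diet. Ago2, the slicing Argonaute, differed by 0.75 (SE 0.27, edgeR adjusted p = 0.224).

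Xlr3b was sparse. Its counts were 30, 0, 134, 14, 5 and 162 in control-diet 2N and 105, 0, 0, 4, 1 and 0 in control-diet Ts65Dn. In supplemented 2N they were 0, 0, 0 and 40, and in supplemented Ts65Dn 84 and 7 in libraries 2 and 3 and 0 in the other 6. Counts were present in 5 of 6 control-diet 2N libraries and in fewer than that in the other groups, and all groups overlapped. Trisomy on the control diet gave -1.58 (SE 2.12, edgeR adjusted p = 0.916), and the smallest adjusted p over the 6 comparisons was 0.847. Within identifier prefix 17 the 4 disomic libraries (134, 14, 5 and 162 counts) all lay above the 4 trisomic ones (0, 4, 1 and 0), with an exact permutation p of 0.0286, the smallest allowed. The separation rests on 5 counts against 4, near the floor, and the share of all tested genes at that p in this subset was not computed. Because Xlr3a, Xlr3b and Xlr3c are near-identical, the division of reads between them is uncertain, and of 10 listed Xlr3, Xlr4 and Xlr5 genes and Xlr only 2 had enough counts to be tested, Xlr3b and Xlr3a.

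Among 27 other neuronal long noncoding RNAs tested, Bc1 was called in 3 comparisons and Snhg14 in 1. Bc1, a small RNA of dendrites that represses translation, had 8.28 (lowest), 18.8 (median) and 38.3 CPM (highest) in control-diet 2N. In control-diet Ts65Dn, 5 of 6 libraries held 22.7 to 97.0 CPM and library 3, one of the pair with few genes, held 15380 CPM, and the difference was 6.87 (SE 1.24, edgeR adjusted p = 0.00769). That call rested on library 3: without it the difference was 1.26 (SE 0.63, edgeR adjusted p = 0.551), and with the glial marker score in the model it was -0.74 (SE 1.37, edgeR adjusted p = 1). Supplemented 2N held 15.3, 21.4, 11.4 and 23.6 CPM. In supplemented Ts65Dn, libraries 2 and 5 held 15.1 and 50.8 CPM, and the other 6 held at least 2822 CPM. The difference from supplemented 2N was 7.81 (SE 1.55, edgeR adjusted p = 0.023), 8.22 without libraries 2 and 5, and not called when any 1 of the 4 supplemented 2N libraries was left out (7.64 to 7.97, edgeR adjusted p 0.0708 to 0.112). Libraries 2 and 5 both had the Malat1 length of 6983 bases found in the other supplemented Ts65Dn libraries. Control-diet 2N library 5 and supplemented 2N library 1 also had that length, so it does not settle the genotype of a library. Son, which Ts65Dn mice carry in an extra copy, held 784 CPM in supplemented Ts65Dn library 2 and 783 CPM in library 5. It ran from 474 to 655 CPM in control-diet 2N and from 356 to 644 CPM in supplemented 2N. In control-diet Ts65Dn it ran from 705 to 1110 CPM and in supplemented Ts65Dn from 628 to 1017 CPM. The genotype of these libraries was not tested. Against control-diet 2N, Bc1 was 7.50 (SE 1.26, edgeR adjusted p = 0.000568) higher in supplemented Ts65Dn, and limma-voom and a robust edgeR fit did not call it. Snhg14, the host of an imprinted small nucleolar RNA cluster, was 0.96 (SE 0.16, edgeR adjusted p = 0.000689) higher in supplemented Ts65Dn than in control-diet 2N.

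The members were also compared with each other across animals, on log2 CPM after subtracting each group's mean, so that differences between groups play no part. Of 28 pairs over 24 libraries, 2 passed a permutation test with Benjamini-Hochberg adjustment over the 28. Meg3 and Rian gave r = 0.82 (rho 0.71, permutation p = 0.00026, adjusted p = 0.00728), and r was 0.63 without the 2 libraries farthest from the median and 0.72 without the pair with few genes. Miat and Malat1 gave r = 0.64 (rho 0.60, permutation p = 0.00083, adjusted p = 0.0116), r = 0.44 without the 2 farthest libraries, and r = -0.22 within control-diet 2N alone against 0.79 and 0.95 within control-diet and supplemented Ts65Dn. The difference between these groups was not tested. Miat and Cdr1os (r = 0.62, rho 0.62, adjusted p = 0.0578) missed the threshold. Mirg was not close to Meg3 (r = 0.15, rho 0.22, adjusted p = 0.574) in spite of their shared domain, and stood nearer to Rian (r = 0.40, rho 0.58, adjusted p = 0.138 for r and 0.0429 for rho).

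**Figure D4:**
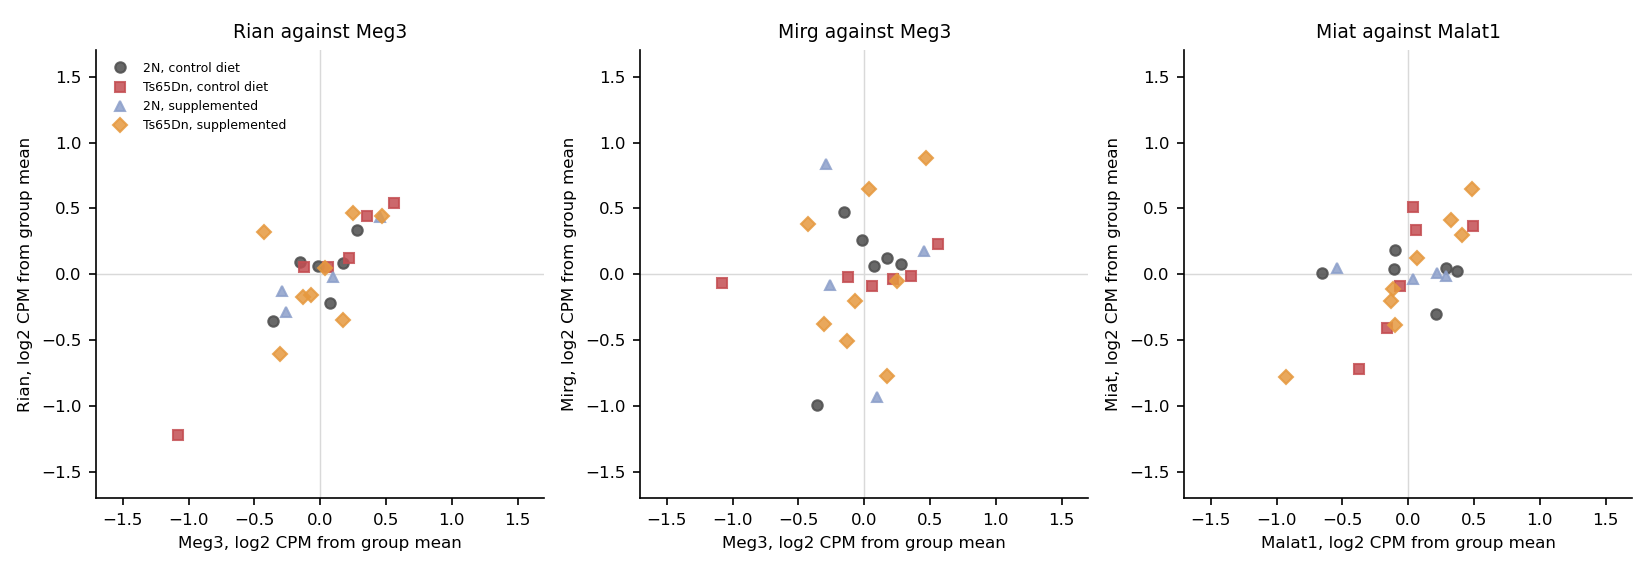
Group-centred log2 CPM of Rian against Meg3, Mirg against Meg3 and Miat against Malat1, with 1 point per library coloured by group. The points of Rian and Meg3 follow a line (r = 0.82), those of Mirg and Meg3 do not (r = 0.15), and those of Miat and Malat1 lie between (r = 0.64).

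By the same measure over 24 libraries, the 3 named genes most like each member among 5546 genes of moderate or high level were as follows. Meg3 was nearest to Rian (r = 0.82), Map3k12 (0.81), a kinase of axon injury signalling, and Spaca6 (0.80). Rian was nearest to Meg3, Spaca6 (0.81) and Mal (0.81), a myelin protein. Mirg was nearest to Mcam (0.70), Mbd1 (0.69) and Sorbs2 (0.68), a lower likeness than that of the other domain members. Miat was nearest to Zdhhc17 (0.82), a palmitoyl transferase, Pygo2 (0.80) and Tnrc6c (0.76), a partner of the Argonaute proteins. Malat1 was nearest to Ano6 (0.77), Mir124a-1hg (0.75), the host of a neuronal microRNA, and Hid1 (0.75). Neat1 was nearest to Gdf11 (0.74), Fastk (0.72) and Fam222b (0.71), and Cdr1os to Cdk5r1 (0.76), the neuronal activator of Cdk5, Lzts3 (0.74) and Hpcal4 (0.73), a calcium sensor of neurons. These are the highest of 5546 values each and carry no test, and all points share library depth and complexity. For Xlr3b, with 13 libraries at 0, the highest values were 0.63 (Ago3), 0.62 (Arid5b) and 0.61 (Tnpo1) and say little.

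Of 48 relations between a member and a measure of the library, also group-centred, 3 passed the permutation test after Benjamini-Hochberg adjustment over the 48. Cdr1os varied with the astrocyte marker score (r = 0.68, rho 0.66, permutation p = 0.00038, adjusted p = 0.0182, and r = 0.56 without the 2 farthest libraries). Mirg followed the number of genes detected (r = 0.60, rho 0.62, permutation p = 0.00179, adjusted p = 0.0427, and 0.53 without the 2 farthest). Malat1 followed the share of mitochondrial ribosomal RNA (r = 0.62, rho 0.69, permutation p = 0.00267, adjusted p = 0.0427, and 0.70 without the 2 farthest). TMM factors were smaller where this share was larger. The factor was 1.178 at 13.48% in control-diet Ts65Dn library 1 and 0.697 at 43.26% in supplemented Ts65Dn library 7. The scaling thus links CPM of any member to the share, and the relation was not tested on CPM by library total. Neat1 with the astrocyte score (r = 0.57, rho 0.58) and with genes detected (r = 0.57, rho 0.62) and Miat with the mitochondrial share (r = 0.67, rho 0.58) each had an adjusted p of 0.0541 for r, and for rho the adjusted p was 0.0598, 0.037 and 0.122 in the same order, so that Neat1 with genes detected passed by rho. Genes detected averaged 18490 in control-diet 2N (SD 1770, n = 6) against 16850 in control-diet Ts65Dn (SD 2875, n = 6), the opposite order to that of Mirg in these groups. Without the 2 libraries with the fewest genes the Mirg difference was 0.79, against 0.78 with them. The part of the number of genes detected in the Mirg difference was not tested.

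**Figure D5:**
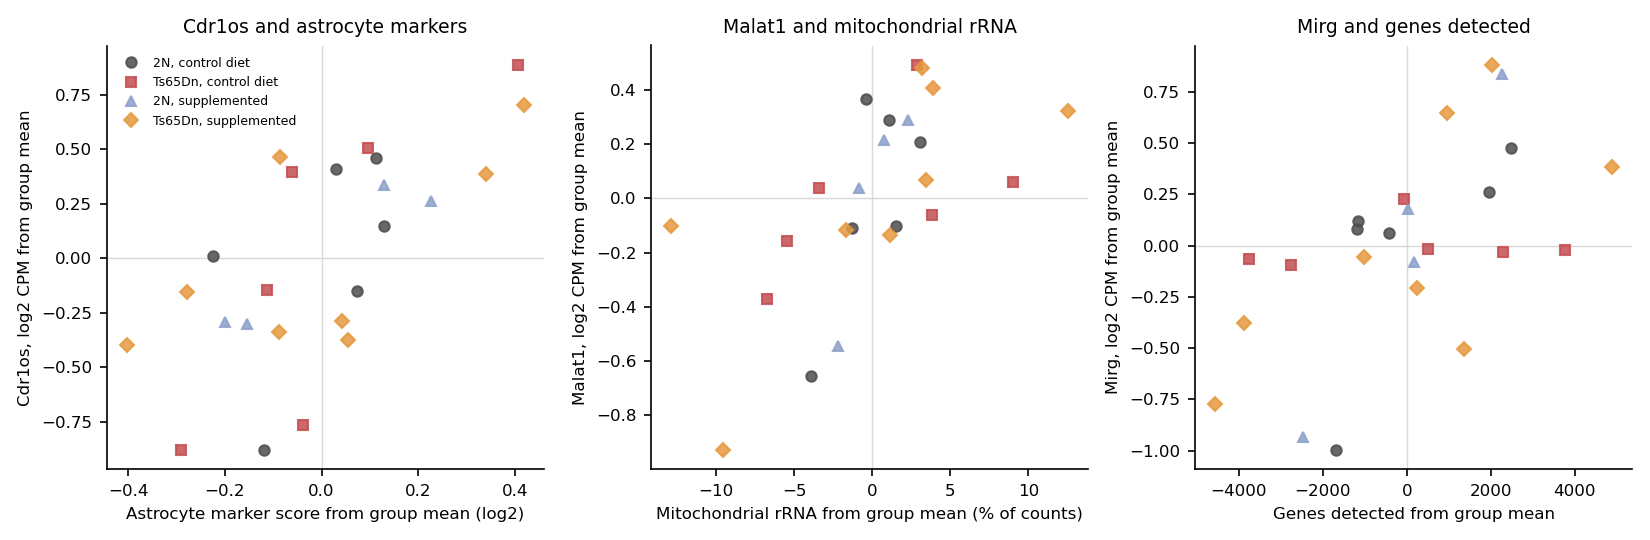
Group-centred log2 CPM of Cdr1os against the astrocyte marker score, of Malat1 against the share of mitochondrial ribosomal RNA and of Mirg against the number of genes detected, with 1 point per library coloured by group. Each relation is positive (r = 0.68, 0.62 and 0.60 over 24 libraries).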

How the data were processed

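Total RNA of about 500 laser-captured neurons per animal was made into stranded libraries and read with single reads of 50 cycles, per the labels' protocols. The submitters' processing notes name Trimmomatic 0.39, STAR and RSEM (versions of the last 2 not given in the sources used here) and the builds GRCm39 and mm10 without their roles. The deposited table holds RSEM expected counts per gene, made by the authors, with no normalization. The per-sample files deposited by the authors add TPM and an isoform-weighted length in bases. Each of the 24 table columns was mapped by its animal identifier, and 0 columns were left out.

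Expected counts were rounded. Genes were kept with filterByExpr (minimum count 10) and tested with edgeR 4.0.16 (R 4.3.3, TMM, quasi-likelihood, 4 group means, all 24 libraries, two-sided). P-values were adjusted with the Benjamini-Hochberg method over 19967 genes. CPM used TMM-scaled totals, and log2 CPM a prior count of 2. SE is the log2 fold change over the root of F. Single members were compared with exact permutation tests, relations across libraries with 100000 permutations within groups (SciPy 1.17.1), and log2 length with limma 3.58.1. Scripts were tested on simulated data. Counts ran from 4688277 to 13443457 per library (median 10010346), with no molecular identifiers, so the precision of a group value is set by the spread between animals, and the common biological coefficient of variation was 1.4.

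The 4 groups follow the genotype and treatment labels (6, 6, 4 and 8 libraries, where the design text states 6 each). The first part of the animal identifier, whose meaning is not stated, was examined as a possible batch. GENCODE M21 gave symbols and transcripts, and RefSeq gave promoter and microRNA sequences, with a promoter entry for 7 of the 8 members. All 8 members were named. From each list up to 4 called genes per comparison, or otherwise 1 or both of the genes with the smallest p, were named, with Chat, Bc1, Son and Qk fixed. The members, lists and most alternatives were chosen with earlier results of these data known. Alternatives covered size factors and DESeq2 1.42.0, limma-voom, filters, TPM with a pseudocount of 1, covariates and left-out libraries.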

Additional observations from a re-analysis of the deposited data

Results flagged for a closer look

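In 8 of the 32 sets of values tested (8 members in 4 groups), 1 library was separated from the rest of its group by more than a Dixon test at the 95% level allows, and chance flags about 1 in 20 sets. Rian was 379.1 CPM in control-diet Ts65Dn library 3, the next lowest being 916. Mirg was 31.76 CPM in control-diet 2N library 6 (next 66.35) and 133.7 CPM in control-diet Ts65Dn library 5 (next 112.7). Miat was 216.5 CPM in control-diet 2N library 5 (next 267.5). Malat1 was 7227 CPM in supplemented Ts65Dn library 5 (next 12540), one of the libraries that the deposited table places among supplemented 2N columns. Xlr3b, at 0 in most libraries, was 9.292 CPM in control-diet Ts65Dn library 1 (next 0.4099), 3.079 CPM in supplemented 2N library 4 (next 0) and 7.012 CPM in supplemented Ts65Dn library 2 (next 0.7979).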

How the results depend on the processing

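No paired analysis was possible because replicate numbers only follow the order of the samples, and the labels give no link between animals across groups. The number of members called was 0 in each of the 6 comparisons. It was 1 with limma-voom for trisomy on the supplemented diet (Malat1) and for supplemented Ts65Dn against control-diet 2N (Meg3), 1 on log2(TPM + 1) for the latter (Cdr1os), and 1 without supplemented Ts65Dn 2 and 5 for trisomy on the supplemented diet (Malat1). With no filter on low counts it was 1 for trisomy on the control diet (Meg3), supplementation in 2N, trisomy on the supplemented diet and the interaction (Malat1 in each). The estimated spread also changed in that setting. For trisomy on the control diet Bc1 gave 6.92 (SE 0.14) there against 6.87 (SE 1.24) in the main fit. Qk gave -1.17 (SE 0.26) against -1.14 (SE 0.23). For supplementation in 2N the edgeR adjusted p of Malat1 was 1.05e-11 there and 0.601 in the main fit. The number of all genes called varied more, from 0 to 326 around 67 for trisomy on the control diet, 4 to 236 around 26 for supplementation in Ts65Dn, 0 to 216 around 1 for supplementation in 2N, 0 to 409 around 36 for trisomy on the supplemented diet, 36 to 549 around 109 for supplemented Ts65Dn against control-diet 2N and 0 to 268 around 1 for the interaction.

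Of the member values, 653 kept and 35 reversed their direction when 1 library was left out. Under other settings 655 kept both direction and side of the threshold, 7 kept the direction and passed the threshold, and 54 reversed. The cause of the reversals was not tested. Among the 54 was Meg3 with limma-voom for supplemented Ts65Dn against control-diet 2N, which was also called. On log2(TPM + 1), where the median of all genes moved to -0.28, -0.40 and -0.46 in the comparisons of Ts65Dn with 2N, trisomy on the control diet gave Rian -0.20 and Malat1 -0.53. Supplementation in Ts65Dn gave Mirg -0.39, Malat1 -0.27 and Cdr1os -0.70. Trisomy on the supplemented diet gave Meg3 -0.56, Rian -0.31, Mirg -0.30, Miat -0.80, Malat1 -0.47, Neat1 -0.14, Cdr1os -0.67 and Xlr3b -0.20. Supplemented Ts65Dn against control-diet 2N gave Meg3 -0.44, Miat -0.28, Malat1 -0.80 and Neat1 -0.57. With limma-voom, trisomy on the control diet gave Meg3 -0.0175 and Malat1 -0.068, supplementation in Ts65Dn Malat1 -0.12, supplementation in 2N Meg3 -0.45, supplemented Ts65Dn against control-diet 2N Meg3 -0.18, Rian 0.062 and Malat1 -0.19, and the interaction Meg3 0.28. With CPM by library total, supplementation in Ts65Dn gave Malat1 -0.13 and Cdr1os -0.069, trisomy on the supplemented diet Meg3 -0.27, Rian -0.12, Miat -0.0197 and Cdr1os -0.14, and supplemented Ts65Dn against control-diet 2N Meg3 -0.16, Malat1 -0.0837 and Neat1 -0.12. With the glial score as a covariate, trisomy on the control diet gave Malat1 -0.0901 and Neat1 0.02, supplementation in Ts65Dn Mirg -0.22 and Xlr3b 1.38, supplementation in 2N Miat -0.0888 and Neat1 0.0731, trisomy on the supplemented diet Meg3 -0.004 and Xlr3b -0.0422, and supplemented Ts65Dn against control-diet 2N Rian 0.0456. With identifier prefix as a factor, supplementation in 2N gave Neat1 0.19 and the interaction Rian 0.053. With no filter the interaction gave Rian 0.0195, and within prefix 16 trisomy on the supplemented diet gave Meg3 -0.15.

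The remaining alternatives were chosen after seeing the data, except the one without the 2 libraries with few genes, where Rian was 0.0057 for supplemented Ts65Dn against control-diet 2N. Without supplemented Ts65Dn 2 and 5, Xlr3b was -2.35 for trisomy on the supplemented diet and -0.77 for the interaction. Without the libraries with Chat under 1 CPM, Malat1 was -0.17 for trisomy on the control diet, Miat 0.19 for supplementation in Ts65Dn, Meg3 -0.0737 and Miat -0.0213 for supplementation in 2N, Cdr1os -0.0059 for trisomy on the supplemented diet, Rian 0.0938 for supplemented Ts65Dn against control-diet 2N, and Rian 0.0599 and Miat 0.21 for the interaction. Without the libraries with Xist counts, Malat1 was -0.0277 and Xlr3b 2.42 for supplementation in Ts65Dn, Meg3 -0.0522 and Xlr3b -0.0648 for trisomy on the supplemented diet, and Rian 0.0655 for the interaction.

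Leaving out 1 library at a time gave reversals for 13 values. For trisomy on the control diet Malat1 ran from -0.0781 to 0.12. For supplementation in Ts65Dn Cdr1os ran from -0.0912 to 0.27, Mirg from -0.0715 to 0.17 and Xlr3b from -3.64 to 3.11. For supplementation in 2N Meg3 ran from -0.13 to 0.13, Miat from -0.0243 to 0.0675 and Neat1 from -0.54 to 0.10. For trisomy on the supplemented diet Meg3 ran from -0.079 to 0.19 and Xlr3b from -2.56 to 6.24. For supplemented Ts65Dn against control-diet 2N Meg3 ran from -0.0089 to 0.12 and Rian from -0.12 to 0.0236. For the interaction Rian ran from -0.18 to 0.13 and Xlr3b from -0.99 to 7.81. The low counts of Xlr3b limit its values most, since 13 of 24 libraries were at 0.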
